A study of Mus musculus with 12 samples.

Results

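The genes described here are 40 that supply cells with amino acids or belong to the stress response that controls that supply through the transcription factor ATF4. They were listed by name, and each was read from a transcript cluster, the array's probe set for one gene, whose platform annotation gives exactly that symbol; where a gene had several such clusters, the one with the highest mean over the 12 arrays stood for it. Of the 40 genes, 37 were measured, out of 22180 genes with a cluster of 1 symbol. Aars shares its cluster with Exosc6, and no cluster carried the symbols Pycr1 or Mars, so these 3 have no value. None of the 37 was removed for a low level.

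RNA came from mouse T cells of C57BL/6 background carrying a green fluorescent protein (GFP) reporter of Foxp3, which defines regulatory T cells. Each well held 200000 CD4 or CD8 cells with 20000 dendritic cells of the BALB/c strain, whose foreign antigens activate T cells. The CD8 control and CD4 control groups received IL-2 at 5 ng/mL and were sorted as GFP-negative. The CD8 Foxp3-positive and CD4 Foxp3-positive groups received the same IL-2, 40 nM retinoic acid and 5 ng/mL TGF-β, and were sorted as GFP-positive. All 4 groups thus share the IL-2, the reporter strain and the dendritic cells, each has 3 arrays (replicates A, B and C), and culture lasted 4 days for CD8 and 5 for CD4 cells. The cytokine treatment and the sort changed together, so a difference within CD8 or CD4 cells belongs to both, and a difference between CD8 and CD4 cells cannot be told apart from the extra day. Cells were pooled before the sort and nothing names separate animals for the replicates, so the p-values rest on a spread between samples that may be technical.

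When amino acids run short or proteins misfold, kinases such as GCN2 and PERK phosphorylate the initiation factor eIF2, which slows most translation but favours that of Atf4 mRNA. The ATF4 protein, paired with C/EBP proteins, then switches on enzymes that make serine, glycine, asparagine and proline, the transporters that import amino acids, and the synthetases that load them onto tRNA. In T cells this programme, together with mTORC1 and Myc, is known to support growth after activation, when dividing cells take up and make large amounts of amino acids. Because ATF4 is set largely by translation, the level of Atf4 mRNA is not a measure of the protein.

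ATF4 and C/EBP dimers bind a short element, and promoters of members that hold its letters are shown here as candidate places for such binding. The letters TGATGNAA (N for any base; TTNCATCA when read on the other strand) were searched on both strands in 300-base RefSeq promoters of the GRCm38.p6 build, which span 250 bases before and 50 bases after each gene's start. Promoters were found for 31 of the 40 genes and 29 of the 37 measured ones. Of the 29, 9 held the element (31.0%), against 1219 of 27025 genes with a promoter (4.51%) and 1304 of 32851 promoters (3.97%). The narrower letters TGATGCAA, which the wider ones include, were in 5 of the 29 (17.2%) against 1.03% of all genes. The members were listed as genes of the ATF4 response, so a share above that of all genes is no separate evidence of binding. The 9 were Asns, Gars, Pck2, Slc1a4, Slc7a11, Atf3, Trib3, Chac1 and Vldlr, and Aars and Pycr1, which have no value here, also held it. Stretches around it follow for 7 of them, 5′ to 3′ along the gene, with the element in capitals.
Asns, chr6:7693210-7693272, minus strand: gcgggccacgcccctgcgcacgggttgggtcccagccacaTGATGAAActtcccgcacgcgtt
Gars, chr6:55037931-55038000, plus strand: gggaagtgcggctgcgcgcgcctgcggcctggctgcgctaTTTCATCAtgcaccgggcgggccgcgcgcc
Pck2, chr14:55540123-55540210, plus strand: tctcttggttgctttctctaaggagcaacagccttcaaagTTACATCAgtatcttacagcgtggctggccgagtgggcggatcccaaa
Slc1a4, chr11:20332699-20332728, minus strand: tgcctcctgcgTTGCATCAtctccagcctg
Slc7a11, chr3:50443632-50443719, minus strand: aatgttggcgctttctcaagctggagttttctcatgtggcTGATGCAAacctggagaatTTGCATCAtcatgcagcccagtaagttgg
Atf3, chr1:191183396-191183483, minus strand: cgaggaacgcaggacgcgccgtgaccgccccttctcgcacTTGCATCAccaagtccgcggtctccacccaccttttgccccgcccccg
Chac1, chr2:119351009-119351096, plus strand: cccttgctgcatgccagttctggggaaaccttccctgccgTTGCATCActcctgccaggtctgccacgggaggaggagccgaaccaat
In Asns the element begins 23 bases before the start, in Gars 30, in Pck2 103, in Atf3 110 and in Chac1 193. In Slc1a4 it lies across the start itself. The Slc7a11 stretch holds it on both strands, beginning 66 and 47 bases before the start. A match is a run of letters and not a measured binding site, and its absence in this window says nothing of sites elsewhere. Changes in expression were not compared between members with and without the element.

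Values below are log2 expression levels, so that 1 unit is 2-fold. A level is read against that of the same gene in other groups or against the median of all genes. Levels across genes otherwise enter only in summed marker signals and in picking the brightest gene of a list. Foxp3 followed the sort labels and the T cell marker Cd3e was high throughout, with Cd3e at 12.50, 12.93, 12.40 and 12.70 and Foxp3 at 5.66, 12.48, 5.76 and 12.44 in the groups, taken as control then Foxp3-positive, CD8 before CD4. Of 10 measured markers of dendritic cells, which shared the wells, 5, 4, 4 and 3 lay above 5.60, the median of all genes, in these groups. Their summed signal, as log2, ran from 10.82 to 11.11 in CD8 controls, 10.91 to 11.09 in CD8 Foxp3-positive, 11.03 to 11.39 in CD4 control and 10.49 to 11.03 in CD4 Foxp3-positive cells. Flt3, Xcr1, Siglech, Zbtb46 and Clec10a of this list stayed below 5.60 in every group. Cd209a, H2-Ab1 and Cst3 stayed above it, with group means of 9.23 to 9.47, 8.95 to 10.0 and 8.16 to 8.54. Some markers of the list moved in the direction of the members. Itgax (CD11c) fell 3.39-fold in CD8 cells (adjusted p = 1.02e-06), from 6.53 to 4.77. Batf3 fell 1.94-fold in CD8 (adjusted p = 0.016) and 2.96-fold in CD4 cells (adjusted p = 0.000523). H2-Ab1, of MHC class II, fell 2.07-fold in CD4 cells (adjusted p = 0.0368). Cst3 rose 1.30-fold in CD8 cells (adjusted p = 0.0127). In all, 2 fell and 1 rose in CD8 cells, and 2 fell and 0 rose in CD4 cells, of 10. Activated T cells can also express Itgax and Batf3. Summed signals of 8 B cell markers ran from 8.34 to 8.51, 8.99 to 9.17, 7.98 to 8.07 and 8.25 to 8.38 in the same order; 0 fell and 2 rose in CD8 cells, and 1 fell and 1 rose in CD4 cells, of 8. Those of 8 macrophage and monocyte markers ran from 8.99 to 9.42, 8.81 to 9.27, 9.18 to 9.29 and 8.55 to 8.78; 1 fell and 2 rose in CD8 cells, and 1 fell and 1 rose in CD4 cells, of 8. The NK cell list, 4 measured genes of which activated T cells also express Gzma and Eomes, ran from 10.75 to 11.55, 10.09 to 10.46, 12.84 to 13.11 and 7.81 to 9.39, with Ncr1 and Klrb1c below 5.60 throughout; 1 fell and 0 rose in CD8 cells, and 2 fell and 0 rose in CD4 cells, of 4. Of the 10 measured genes of the T cell list, 0 fell and 2 rose in CD8 cells, Cd3e and Foxp3. In CD4 cells 4 fell, Cd3d (-0.48), Cd3g (-0.37), Thy1 (-0.23) and Cd8b1 (-1.55), and 3 rose, Cd3e, Foxp3 and Cd8a. Cd8a and Cd8b1 averaged 6.51 and 7.72 on the CD4 control arrays. Their means with Foxp3 were 7.54 and 6.17, so all of these lay above 5.60. The part of other cells in the results was not tested. Among the control arrays, CD8 control replicate C had the lowest value of its group for 29 of the 37 genes, at a median of -0.29 from the mean of the other two, and CD4 control replicate B for 27 of the 37, at -0.15; over all genes these medians were -0.00608 and -0.00439. In bulk samples fewer cells of a type and less RNA per cell cannot be told apart.

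In CD8 cells the amino acid supply genes were mostly lower in the Foxp3-positive group. Of 37 genes, 27 fell and 2 rose, Wars and Sesn2, with a median log2 change of -0.82. Over all 22180 genes 20.0% passed; 10.6% fell and 9.39% rose in this comparison, with a median of -0.02; a call is an adjusted p under 0.05. A fall of at least 2-fold was seen for 8 members, against 1.32% of all genes. In CD4 cells 24 of the 37 fell and 1, Wars, rose, with a median of -0.51. Of all genes 22.5% passed there; 10.4% fell and 12.1% rose, with a median of 0.00339. At least 2-fold falls numbered 7, against 2.75% of all genes. Of the 37 members, 34 had a mean level above the median of all genes. Genes whose highest group mean lay below that median (dim genes) were left out as an alternative. There 31 of 36 members passed in CD8 cells, against 42.7% of the genes kept, and 24 of 36 in CD4 cells, against 44%.

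The CD8 and CD4 comparisons share no array in their group means, though they share the estimate of the spread. Of the 37 genes 18 (48.6%) fell in both, against 3.67% of all genes. The members were chosen with earlier results of these data known. Their excess over all genes, here and in the counts above, is therefore not independent support. The arrays of Foxp3-positive and control cells did not overlap for 31 members in CD8 cells, where this held for 33.5% of all genes, and for 30 in CD4 cells, against 37.8%. Without CD8 control replicate C, 30 members fell and 1 rose in CD8 cells, and without CD4 control replicate B, 22 fell and 1 rose in CD4 cells. With any 1 array left out, 26 to 31 members passed in CD8 cells and 17 to 26 in CD4 cells, the fewest without CD4 control replicate A. In these fits 15.7% to 20.5% of all genes passed in CD8 cells and 17.3% to 23.7% in CD4 cells, with 19.6% without CD4 control replicate A. The members that passed in neither comparison were Psph, Slc1a5 and Trib3. Without CD8 control replicate C all of them passed in CD8 cells (limma adjusted p = 0.0363, 0.00111 and 0.0388). In CD4 cells Trib3 passed without CD8 control replicate A (adjusted p = 0.0128) or with the groups compared fitted alone (adjusted p = 0.0137). Psph passed there with quantile normalization repeated (adjusted p = 0.0485).

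**Figure D1:**
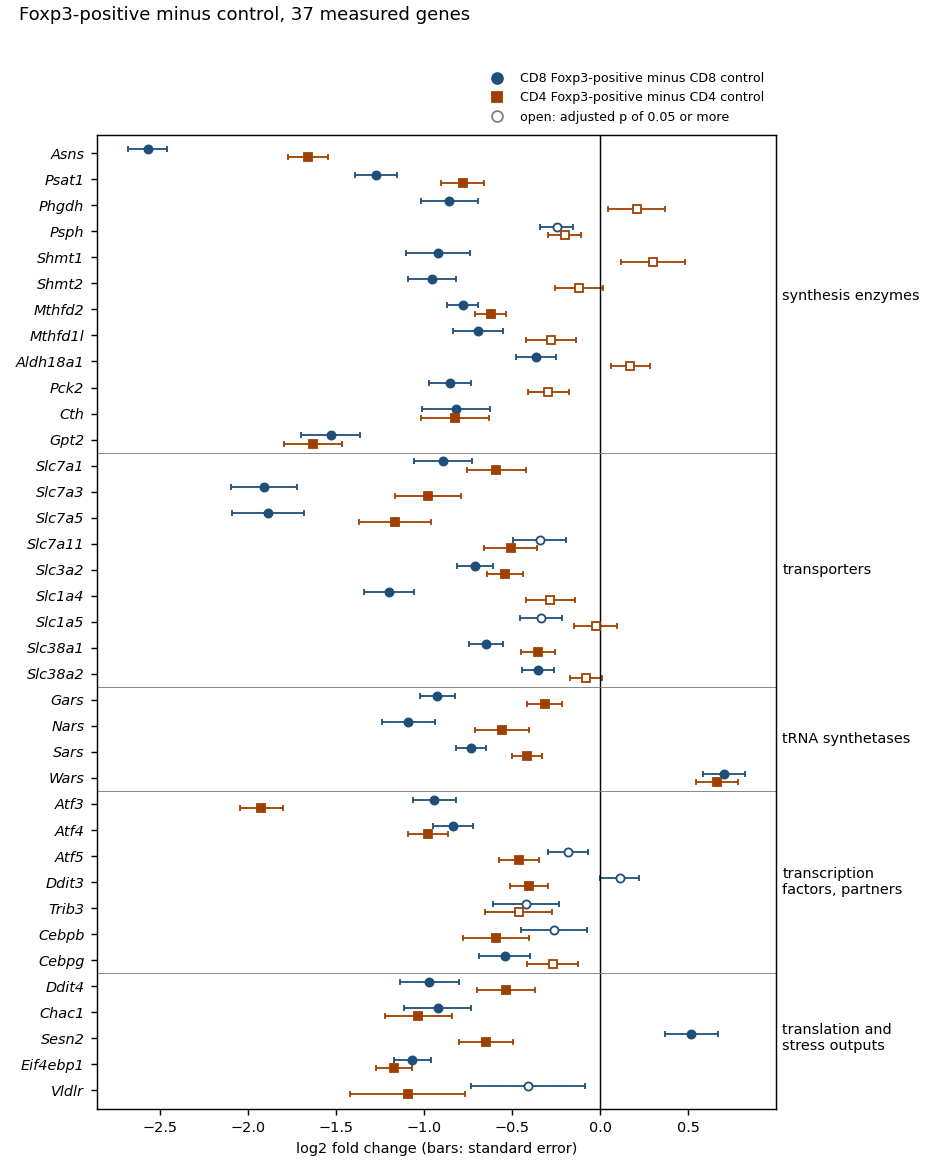
Log2 fold changes, Foxp3-positive minus control, of the 37 measured genes in CD8 cells (blue circles) and CD4 cells (brown squares), with limma's standard errors; filled symbols have an adjusted p under 0.05. Most symbols lie left of 0, Asns reaches -2.57 in CD8 cells, Wars lies right of 0 in both, and Sesn2 lies on opposite sides.

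Among the enzymes that make amino acids, 11 of 12 fell in CD8 cells and 5 in CD4 cells, and none rose in either. Of all genes 10.6% fell in CD8 cells and 10.4% in CD4 cells. Asns, which makes asparagine from aspartate, changed the most. The Asns level was 9.76, 9.78 and 9.46 on CD8 control arrays, 6.99, 7.24 and 7.07 on CD8 Foxp3-positive arrays, 8.77, 8.53 and 8.83 on CD4 control arrays and 7.07, 7.02 and 7.07 on CD4 Foxp3-positive arrays. Every Foxp3-positive array lay below every control array of its lineage, and the Foxp3-positive arrays of both lineages overlapped, between 6.99 and 7.24. Asns fell 5.93-fold in CD8 cells (-2.57 ± 0.11 in log2, adjusted p = 8.36e-09) and 3.15-fold in CD4 cells (-1.66 ± 0.11 in log2, adjusted p = 2.52e-07). The fall was larger in CD8 cells: the interaction, the CD8 change minus the CD4 change, was -0.91 ± 0.16 (adjusted p = 0.00219).

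Serine synthesis runs through Phgdh, Psat1 and Psph. The Psat1 level was 9.72, 9.75 and 9.42 on CD8 control arrays, 8.38, 8.51 and 8.17 on CD8 Foxp3-positive arrays, 9.05, 8.88 and 9.17 on CD4 control arrays and 8.35, 8.25 and 8.17 on CD4 Foxp3-positive arrays. Its groups did not overlap within either lineage, and it fell 2.42-fold in CD8 cells (-1.27 ± 0.12 in log2, adjusted p = 7.42e-06) and 1.72-fold in CD4 cells (-0.78 ± 0.12 in log2, adjusted p = 0.000364). The Phgdh level was 8.97, 9.04 and 8.77 on CD8 control arrays, 8.11, 8.13 and 7.98 on CD8 Foxp3-positive arrays, 8.34, 7.82 and 8.25 on CD4 control arrays and 8.29, 8.68 and 8.05 on CD4 Foxp3-positive arrays. The first enzyme of the route was thus highest in CD8 controls, with overlapping arrays in CD4 cells. Phgdh fell 1.81-fold in CD8 cells (-0.85 ± 0.16 in log2, adjusted p = 0.00205), did not pass in CD4 cells (0.21 ± 0.16 in log2, adjusted p = 0.427), and its changes differed by -1.06 ± 0.23 (adjusted p = 0.00863). Psph, the last step, changed by -0.25 ± 0.09 (adjusted p = 0.0824) in CD8 cells and -0.20 ± 0.09 (adjusted p = 0.147) in CD4 cells and passed in neither, although its arrays did not overlap in either.

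Shmt1 in the cytosol and Shmt2 in mitochondria turn serine into glycine and hand a carbon unit to folate. The Shmt1 level was 8.90, 8.95 and 8.23 on CD8 control arrays, 7.79, 7.93 and 7.60 on CD8 Foxp3-positive arrays, 7.82, 7.40 and 7.49 on CD4 control arrays and 8.06, 7.84 and 7.71 on CD4 Foxp3-positive arrays. CD8 control arrays were the highest, while the CD4 groups overlapped. Shmt1 fell 1.89-fold in CD8 cells (-0.92 ± 0.18 in log2, adjusted p = 0.00264), against 0.30 ± 0.18 (adjusted p = 0.286) in CD4 cells, a difference of -1.22 ± 0.26 (adjusted p = 0.0072). Shmt2 read 11.39, 11.40 and 10.98 in the CD8 control group and 10.13, 10.46 and 10.32 in its Foxp3-positive counterpart, and 10.68, 10.32 and 10.55 and 10.38, 10.50 and 10.30 in the CD4 pair of groups. Again the CD8 controls stood above the other groups, and the CD4 groups overlapped. It fell 1.94-fold in CD8 cells (-0.95 ± 0.14 in log2, adjusted p = 0.000225) and did not pass in CD4 cells (-0.12 ± 0.14 in log2, adjusted p = 0.594), with an interaction of -0.83 ± 0.19 (adjusted p = 0.0123). Of the mitochondrial folate enzymes, Mthfd2 fell in CD8 (-0.78 ± 0.09, adjusted p = 3.08e-05) and CD4 cells (-0.62 ± 0.09, adjusted p = 0.000163), and Mthfd1l fell in CD8 cells (-0.69 ± 0.14, adjusted p = 0.00333) and changed by -0.28 ± 0.14 in CD4 cells (adjusted p = 0.193).

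The remaining enzymes feed proline, cysteine, alanine and sugar precursors. Gpt2, a mitochondrial enzyme that makes alanine, stood close between the lineages. The Gpt2 level was 6.91, 6.79 and 6.63 on CD8 control arrays, 5.44, 5.18 and 5.12 on CD8 Foxp3-positive arrays, 6.92, 6.44 and 6.91 on CD4 control arrays and 5.01, 4.91 and 5.47 on CD4 Foxp3-positive arrays. All control arrays lay above all Foxp3-positive arrays, across both lineages. Gpt2 fell 2.89-fold in CD8 cells (-1.53 ± 0.17 in log2, adjusted p = 2.41e-05) and 3.09-fold in CD4 cells (-1.63 ± 0.17 in log2, adjusted p = 9.78e-06). Cth, which releases cysteine from cystathionine, fell by a like amount in both, with -0.82 ± 0.19 (adjusted p = 0.00853) and -0.82 ± 0.19 (adjusted p = 0.0075), with group means of at most 5.72.

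Pck2, which makes phosphoenolpyruvate in mitochondria and carries the element in its promoter, had CD8 Foxp3-positive arrays below all others. Pck2 read 8.35, 8.06 and 8.35 in the CD8 control group and 7.30, 7.35 and 7.55 in its Foxp3-positive counterpart, and 7.96, 8.04 and 8.34 and 7.81, 7.82 and 7.84 in the CD4 pair of groups. In CD8 cells it fell 1.81-fold (-0.85 ± 0.12 in log2, adjusted p = 0.000186), in CD4 cells it did not pass (-0.29 ± 0.12 in log2, adjusted p = 0.101), and the interaction was -0.56 ± 0.17 (adjusted p = 0.0439). Aldh18a1 is the first step of proline synthesis. Aldh18a1 read 9.75, 9.73 and 9.42 in the CD8 control group and 9.27, 9.38 and 9.16 in its Foxp3-positive counterpart, and 9.35, 9.27 and 9.39 and 9.66, 9.50 and 9.36 in the CD4 pair of groups. The CD8 groups did not overlap and the CD4 groups did. Its fall in CD8 cells (-0.36 ± 0.11 in log2, adjusted p = 0.0372) and its interaction (-0.53 ± 0.16, adjusted p = 0.0423) passed, and in CD4 cells it was at 0.17 ± 0.11 (adjusted p = 0.326).

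Of the 9 transporters, 7 fell in CD8 cells and 6 in CD4 cells, against 10.6% and 10.4% of all genes, and none rose. Slc7a5 forms, with the heavy chain Slc3a2, the main importer of leucine and other large neutral amino acids in activated T cells. The Slc7a5 level was 11.33, 11.18 and 10.45 on CD8 control arrays, 9.10, 9.30 and 8.90 on CD8 Foxp3-positive arrays, 10.61, 10.17 and 10.51 on CD4 control arrays and 9.49, 9.18 and 9.13 on CD4 Foxp3-positive arrays. Control and Foxp3-positive arrays did not overlap in either lineage, and CD8 control replicate C was the lowest CD8 control. Slc7a5 fell 3.69-fold in CD8 cells (-1.89 ± 0.21 in log2, adjusted p = 2.46e-05) and 2.24-fold in CD4 cells (-1.16 ± 0.21 in log2, adjusted p = 0.00104). Its partner Slc3a2 fell 1.64-fold in CD8 (-0.71 ± 0.10, adjusted p = 0.00024) and 1.45-fold in CD4 cells (-0.54 ± 0.10, adjusted p = 0.00179).

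Slc7a1 and Slc7a3 carry arginine and lysine into the cell. The Slc7a3 level was 6.78, 6.48 and 5.92 on CD8 control arrays, 4.25, 4.66 and 4.55 on CD8 Foxp3-positive arrays, 5.38, 5.50 and 5.37 on CD4 control arrays and 4.56, 4.58 and 4.19 on CD4 Foxp3-positive arrays. All CD8 controls lay above the CD4 controls, and both Foxp3-positive groups covered nearly the same low range, below the median of all genes. Slc7a3 fell 3.75-fold in CD8 cells (-1.91 ± 0.19 in log2, adjusted p = 1.09e-05) and 1.97-fold in CD4 cells (-0.98 ± 0.19 in log2, adjusted p = 0.00195), with an interaction of -0.93 ± 0.27 (adjusted p = 0.0355). Slc7a1 fell by 0.89 on the log2 scale in CD8 cells (adjusted p = 0.00175) and by 0.59 in CD4 cells (adjusted p = 0.0215). At such low levels a fold is a ratio of array signal, which may include background.

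Slc1a4, which exchanges serine, alanine and cysteine and has the element across its start site, fell in CD8 cells. Slc1a4 read 6.95, 6.45 and 6.34 in the CD8 control group and 5.21, 5.42 and 5.52 in its Foxp3-positive counterpart, and 6.19, 6.03 and 6.03 and 5.85, 5.74 and 5.80 in the CD4 pair of groups. The CD8 groups were far apart and the CD4 groups close, though without overlap. Slc1a4 fell 2.29-fold in CD8 cells (-1.20 ± 0.14 in log2, adjusted p = 4.69e-05), against -0.28 ± 0.14 (adjusted p = 0.185) in CD4 cells, and the interaction was -0.92 ± 0.20 (adjusted p = 0.00865). The glutamine and alanine carriers Slc38a1 and Slc38a2 fell in CD8 cells, by 0.65 (adjusted p = 0.000345) and 0.35 (adjusted p = 0.0138) on the log2 scale. In CD4 cells Slc38a1 fell (-0.35 ± 0.10, adjusted p = 0.0197) and Slc38a2 was at -0.08 ± 0.09 (adjusted p = 0.607). Slc1a5, a glutamine exchanger, did not pass in CD8 (-0.34 ± 0.12, adjusted p = 0.0709) or CD4 cells (-0.03 ± 0.12, adjusted p = 0.913). Slc7a11, the cystine importer with the element on both strands, was dim, with a mean of at most 3.75 in a group, and fell in CD4 cells (-0.51 ± 0.15, adjusted p = 0.0279) and did not pass in CD8 cells (-0.34 ± 0.15, adjusted p = 0.147).

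The 4 measured synthetases, which charge tRNA with glycine, asparagine, serine and tryptophan, did not all move one way. Gars, Nars and Sars fell in both lineages. The Gars level was 11.40, 11.42 and 11.16 on CD8 control arrays, 10.39, 10.51 and 10.31 on CD8 Foxp3-positive arrays, 10.71, 10.53 and 10.65 on CD4 control arrays and 10.42, 10.28 and 10.25 on CD4 Foxp3-positive arrays. CD8 controls were the highest, and the groups did not overlap in either lineage. Gars fell 1.9-fold in CD8 cells (-0.92 ± 0.10 in log2, adjusted p = 2.27e-05) and 1.24-fold in CD4 cells (-0.32 ± 0.10 in log2, adjusted p = 0.037), with an interaction of -0.61 ± 0.14 (adjusted p = 0.0124). Nars read 10.88, 10.86 and 10.33 in the CD8 control group and 9.67, 9.71 and 9.43 in its Foxp3-positive counterpart, and 10.33, 10.07 and 10.45 and 9.82, 9.72 and 9.64 in the CD4 pair of groups. Its CD8 control replicate C stood apart from replicates A and B, but no groups overlapped within a lineage. Nars fell 2.13-fold in CD8 cells (-1.09 ± 0.15 in log2, adjusted p = 0.000177) and 1.47-fold in CD4 cells (-0.56 ± 0.15 in log2, adjusted p = 0.017), and Sars 1.66-fold (adjusted p = 3.8e-05) and 1.33-fold (adjusted p = 0.00271).

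Wars, the tryptophan synthetase, which interferon-γ is also known to induce, rose in both lineages. The Wars level was 9.56, 9.63 and 9.30 on CD8 control arrays, 10.19, 10.22 and 10.19 on CD8 Foxp3-positive arrays, 9.76, 9.56 and 9.50 on CD4 control arrays and 10.34, 10.04 and 10.43 on CD4 Foxp3-positive arrays. Every Foxp3-positive array was above every control array. It rose 1.63-fold in CD8 cells (0.70 ± 0.12 in log2, adjusted p = 0.000901) and 1.58-fold in CD4 cells (0.66 ± 0.12 in log2, adjusted p = 0.00118). The methionine synthetase, listed under its newer symbol Mars1 and so outside the rule, read 10.00, 10.07 and 9.67 in the CD8 control group, 9.08, 9.27 and 9.11 with Foxp3, and 9.42, 9.17 and 9.37 and 9.25, 9.24 and 9.07 in the CD4 pair of groups. Mars1 was high in CD8 controls, fell 1.69-fold in CD8 cells (-0.76 ± 0.12 in log2, adjusted p = 0.000443) and did not pass in CD4 cells (-0.14 ± 0.12 in log2, adjusted p = 0.469).

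**Figure D2:**
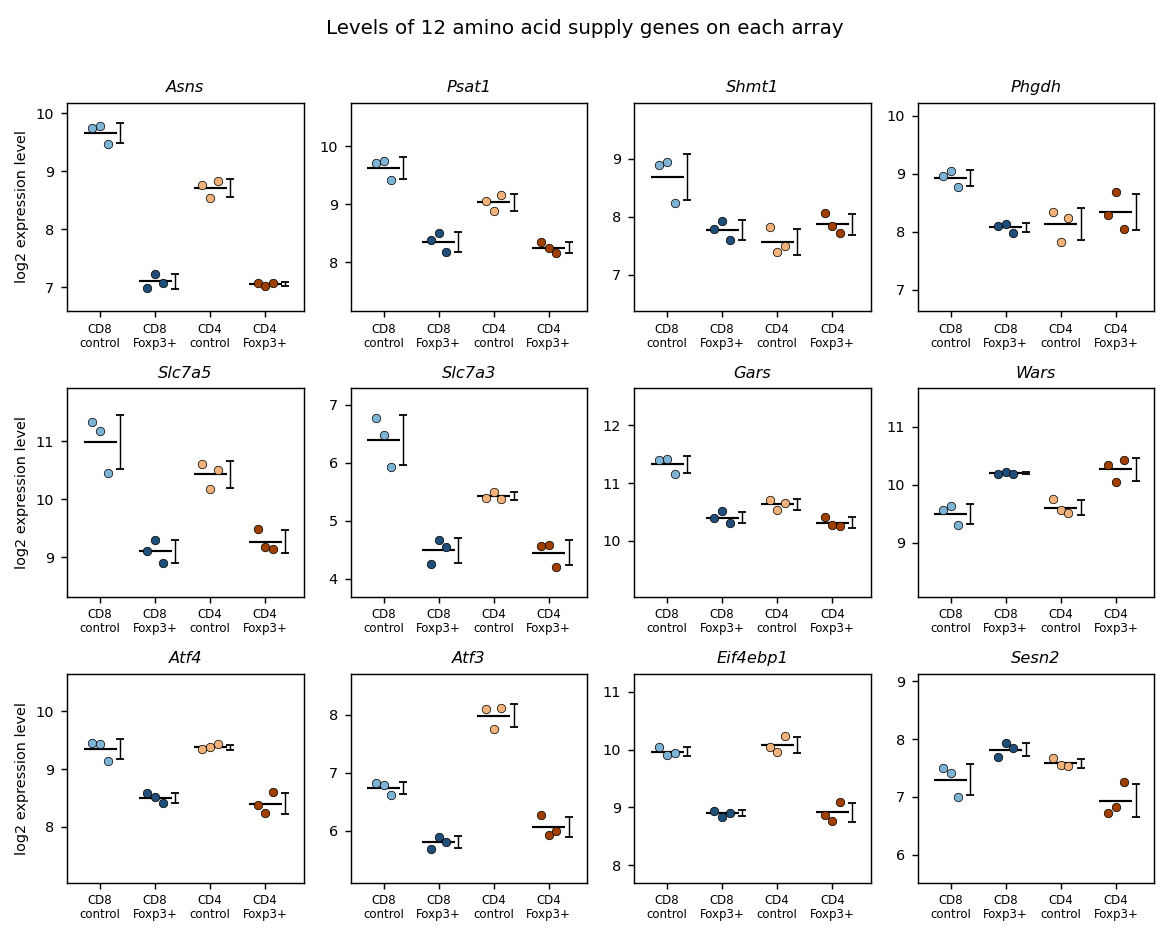
Log2 expression level of 12 genes on each of the 12 arrays, 3 per group, with the group mean (line) and SD (bar, n = 3); every panel spans the same 3.6 log2 units. Asns, Psat1, Slc7a5, Slc7a3, Atf4 and Eif4ebp1 have lower points in both Foxp3-positive groups, Shmt1 and Phgdh are highest in CD8 controls, and Wars points are higher in both Foxp3-positive groups.

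Of the 7 transcription factors and their partners, 3 fell in CD8 cells, Atf3, Atf4 and Cebpg, against 10.6% of all genes. In CD4 cells 5 fell, Atf3, Atf4, Atf5, Ddit3 and Cebpb, against 10.4% of all genes, and none rose in either. The Atf4 level was 9.45, 9.43 and 9.14 on CD8 control arrays, 8.58, 8.52 and 8.41 on CD8 Foxp3-positive arrays, 9.34, 9.37 and 9.43 on CD4 control arrays and 8.38, 8.24 and 8.60 on CD4 Foxp3-positive arrays. Both control groups lay at one level and both Foxp3-positive groups at another, with no overlap. Atf4 mRNA fell 1.79-fold in CD8 cells (-0.84 ± 0.11 in log2, adjusted p = 0.00014) and 1.97-fold in CD4 cells (-0.98 ± 0.11 in log2, adjusted p = 2.89e-05). Atf3 read 6.82, 6.78 and 6.62 in the CD8 control group and 5.69, 5.90 and 5.80 in its Foxp3-positive counterpart, and 8.10, 7.75 and 8.12 and 6.27, 5.93 and 6.0 in the CD4 pair of groups. Atf3, a stress factor that ATF4 induces, was highest in CD4 controls, above every CD8 control array, and the Foxp3-positive groups lay below both. Atf3 fell 1.92-fold in CD8 cells (-0.94 ± 0.12 in log2, adjusted p = 0.00011) and 3.79-fold in CD4 cells (-1.92 ± 0.12 in log2, adjusted p = 1.49e-07), the larger fall being in CD4 cells (interaction 0.98 ± 0.17, adjusted p = 0.00244).

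Ddit3 encodes CHOP, which can turn a long stress response toward cell death. Ddit3 read 7.18, 6.76 and 7.08 in the CD8 control group and 7.04, 7.10 and 7.21 in its Foxp3-positive counterpart, and 7.96, 7.91 and 7.89 and 7.41, 7.56 and 7.58 in the CD4 pair of groups. CD4 controls were the highest group and the CD8 groups overlapped. Ddit3 fell 1.32-fold in CD4 cells (-0.40 ± 0.11 in log2, adjusted p = 0.0174), was at 0.11 ± 0.11 (adjusted p = 0.581) in CD8 cells, and its interaction of 0.52 ± 0.16 passed narrowly (adjusted p = 0.0449). Cebpb and Cebpg encode C/EBP partners of ATF4. Cebpb fell in CD4 cells (-0.59 ± 0.19, adjusted p = 0.0373) and was at -0.26 ± 0.19 in CD8 cells (adjusted p = 0.405), whereas Cebpg fell in CD8 cells (-0.54 ± 0.14, adjusted p = 0.0165) and was at -0.27 ± 0.14 in CD4 cells (adjusted p = 0.221). Their interactions did not pass (adjusted p = 0.493 and adjusted p = 0.452). Atf5, a related factor, fell in CD4 cells (-0.46 ± 0.11, adjusted p = 0.0105) and was at -0.18 ± 0.11 in CD8 cells (adjusted p = 0.337). Trib3, a pseudokinase that restrains ATF4, also holds the element in its promoter. It changed by -0.42 ± 0.19 (adjusted p = 0.153) and -0.46 ± 0.19 (adjusted p = 0.101) and passed in neither.

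The 5 remaining genes are Eif4ebp1, Chac1, Sesn2, Ddit4 and Vldlr. All 5 fell in CD4 cells, and in CD8 cells 3 fell, Ddit4, Chac1 and Eif4ebp1, while Sesn2 rose. Of all genes 10.4% fell in CD4 cells, and 10.6% fell and 9.39% rose in CD8 cells. Eif4ebp1 encodes a repressor of cap-dependent translation. Eif4ebp1 read 10.04, 9.90 and 9.94 in the CD8 control group and 8.94, 8.84 and 8.91 in its Foxp3-positive counterpart, and 10.05, 9.96 and 10.23 and 8.87, 8.77 and 9.10 in the CD4 pair of groups. All control arrays lay above all Foxp3-positive arrays, across both lineages. Eif4ebp1 fell 2.09-fold in CD8 cells (-1.07 ± 0.10 in log2, adjusted p = 9.31e-06) and 2.25-fold in CD4 cells (-1.17 ± 0.10 in log2, adjusted p = 2.88e-06). Chac1 read 6.91, 6.44 and 6.19 in the CD8 control group and 5.72, 5.60 and 5.46 in its Foxp3-positive counterpart, and 6.34, 6.25 and 6.88 and 5.59, 5.25 and 5.53 in the CD4 pair of groups. Chac1, which breaks down glutathione and holds the element in its promoter, also separated control from Foxp3-positive arrays in both lineages. It fell 1.9-fold in CD8 cells (-0.92 ± 0.19 in log2, adjusted p = 0.0035) and 2.05-fold in CD4 cells (-1.03 ± 0.19 in log2, adjusted p = 0.00142).

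Sesn2 and Ddit4 encode inhibitors of mTORC1, the kinase complex that senses amino acids. The Sesn2 level was 7.50, 7.41 and 6.99 on CD8 control arrays, 7.69, 7.92 and 7.84 on CD8 Foxp3-positive arrays, 7.66, 7.55 and 7.53 on CD4 control arrays and 6.72, 6.82 and 7.26 on CD4 Foxp3-positive arrays. Foxp3-positive arrays were above the controls in CD8 cells and below them in CD4 cells. Sesn2 rose 1.43-fold in CD8 cells (0.52 ± 0.15 in log2, adjusted p = 0.0293) and fell 1.57-fold in CD4 cells (-0.65 ± 0.15 in log2, adjusted p = 0.00761), a difference of 1.17 ± 0.22 (adjusted p = 0.00324). Ddit4 fell in CD8 (-0.97 ± 0.17, adjusted p = 0.000938) and CD4 cells (-0.54 ± 0.17, adjusted p = 0.0343). Vldlr read 6.55, 5.42 and 6.34 in the CD8 control group and 6.0, 5.49 and 5.60 in its Foxp3-positive counterpart, and 6.68, 6.62 and 7.44 and 5.39, 5.63 and 6.45 in the CD4 pair of groups. The arrays of Vldlr, a lipoprotein receptor whose promoter also holds the element, were widely spread within groups and overlapped in CD8 cells. Vldlr fell 2.13-fold in CD4 cells (-1.09 ± 0.33 in log2, adjusted p = 0.0285) and was at -0.41 ± 0.33 in CD8 cells (adjusted p = 0.471).

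Of the 29 calls in CD8 cells, 25 held under each of 19 alternatives, 12 of which leave out 1 array. Aldh18a1 lost its call without CD8 control replicate A or B, without CD8 Foxp3-positive replicate A or C, with the groups compared fitted alone, or with median centring (adjusted p between 0.0513 and 0.143). Slc38a2 missed the threshold without CD8 control replicate A or B, or without CD8 Foxp3-positive replicate A (adjusted p between 0.0516 and 0.0563). Cebpg no longer passed without CD8 control replicate A, or without CD8 Foxp3-positive replicate C (adjusted p between 0.0796 and 0.0812). Sesn2 lost its call without CD8 control replicate C, without CD8 Foxp3-positive replicate B or C, or with the replicate block (adjusted p between 0.0518 and 0.11). Of the 25 calls in CD4 cells, 16 held under each. Slc7a1 lost its call without CD4 control replicate A, or without CD4 Foxp3-positive replicate B or C (adjusted p between 0.0627 and 0.0885). Slc7a11 missed the threshold without CD4 control replicate A, B or C, without CD4 Foxp3-positive replicate A or C, or with the mean of all clusters (adjusted p between 0.0625 and 0.0953). Slc38a1 no longer passed without CD4 control replicate A, without CD4 Foxp3-positive replicate C, with quantile normalization repeated, or with median centring (adjusted p between 0.0531 and 0.078). Gars lost its call without CD8 Foxp3-positive replicate A, without CD4 control replicate A or C, without CD4 Foxp3-positive replicate B or C, with the groups compared fitted alone, with quantile normalization repeated, or with median centring (adjusted p between 0.0503 and 0.138). Nars missed the threshold without CD4 control replicate A or C, or without CD4 Foxp3-positive replicate C (adjusted p between 0.0535 and 0.0722). Ddit3 no longer passed without CD4 control replicate A, or without CD4 Foxp3-positive replicate A (adjusted p between 0.056 and 0.0704). Cebpb lost its call without CD4 control replicate A, B or C, without CD4 Foxp3-positive replicate A or C, or with median centring (adjusted p between 0.0596 and 0.127). Ddit4 missed the threshold without CD4 control replicate A or C, without CD4 Foxp3-positive replicate A, B or C, or with median centring (adjusted p between 0.0564 and 0.142). Vldlr no longer passed without CD4 control replicate C, or without CD4 Foxp3-positive replicate A or B (adjusted p between 0.0945 and 0.12).

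The changes in CD8 and CD4 cells were compared directly by the interaction, the CD8 change minus the CD4 change. Of the 37 genes 12 passed (32.4%), 9 below and 3 above 0, against 13.5% of all genes, 7.48% below and 6.01% above. With dim genes left out 14 of 36 members passed, against 32.1% of the genes kept, so these shares lay closer together. Of the 12, 9 had the more negative change in CD8 cells. They were 6 synthesis enzymes, Asns, Phgdh, Shmt1, Shmt2, Aldh18a1 and Pck2, the transporters Slc7a3 and Slc1a4, and the synthetase Gars. The 3 above 0 were the stress genes Atf3, Ddit3 and Sesn2. The remaining 25 did not pass, among them Psat1 (-0.49 ± 0.17, adjusted p = 0.0782), Slc7a5 (-0.72 ± 0.29, adjusted p = 0.129), Atf4 (0.14 ± 0.16, adjusted p = 0.652) and Eif4ebp1 (0.10 ± 0.15, adjusted p = 0.731). Of the 12 calls 8 held under each of 18 alternatives. Aldh18a1 lost its call without CD8 control replicate A or B, without CD8 Foxp3-positive replicate A or C, without CD4 control replicate A, B or C, or without CD4 Foxp3-positive replicate A or B (adjusted p between 0.0611 and 0.103). Pck2 missed the threshold without CD8 control replicate A or C, without CD8 Foxp3-positive replicate A or B, without CD4 control replicate A or B, without CD4 Foxp3-positive replicate A, B or C, or with quantile normalization repeated (adjusted p between 0.0637 and 0.103). Slc7a3 no longer passed without CD8 control replicate A or B, without CD8 Foxp3-positive replicate A or C, without CD4 control replicate A, B or C, or without CD4 Foxp3-positive replicate A or B (adjusted p between 0.0587 and 0.0881). Ddit3 lost its call without CD8 control replicate B, without CD8 Foxp3-positive replicate A, B or C, without CD4 control replicate A, B or C, without CD4 Foxp3-positive replicate A, B or C, with the replicate block, or with median centring (adjusted p between 0.0555 and 0.105). With any 1 array left out, 8 to 16 members passed: 16 without CD8 control replicate C, and 8 without CD8 Foxp3-positive replicate A, CD4 control replicate A or B, or CD4 Foxp3-positive replicate A or B. Of all genes 10.2% to 14.2% passed in these fits.

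The lineages were also compared directly, within controls, where 20.9% of all genes passed, and within Foxp3-positive cells, where 4.71% did. In controls 9 of the 37 genes were higher in CD8 than in CD4 cells, against 12.1% of all genes, and 4 were lower, against 8.76%. The higher ones were Shmt1 (1.12 ± 0.18, adjusted p = 0.000671), Slc7a3 (0.97 ± 0.19, adjusted p = 0.00228), Asns (0.96 ± 0.11, adjusted p = 5.13e-05), Phgdh, Shmt2, Gars, Psat1, Slc1a4 and Slc38a2, all suppliers of amino acids or charged tRNA. The lower ones were all transcription factors, Atf3 (-1.25 ± 0.12, adjusted p = 1.29e-05), Ddit3 (-0.91 ± 0.11, adjusted p = 6.62e-05), Cebpb and Atf5. With dim genes left out 19 of 36 members passed in controls, 15 higher and 4 lower, against 43.8% of the genes kept. Among Foxp3-positive cells 1 gene, Sesn2, was higher in CD8 cells (0.89 ± 0.15, adjusted p = 0.00417), against 2.41% of all genes, and 0 were lower, against 2.30%. In limma 6 of the 37 members had an unadjusted p under 0.05, and 3649 of all 22180 genes did, a like share.

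The median size of the lineage difference over the 37 genes, regardless of sign, was 0.30 in controls and 0.13 in Foxp3-positive cells, against 0.16 and 0.12 over all genes. It was smaller in Foxp3-positive cells for 28 of 37 members (75.7%) and for 59.4% of all genes. A missed threshold does not show equal levels, and the 95% interval of the CD8 minus CD4 difference in Foxp3-positive cells was -0.19 to 0.29 for Asns, -0.49 to 0.30 for Shmt1, -0.61 to 0.27 for Slc7a5 and -0.14 to 0.34 for Atf4. The widest departures short of the threshold were Cebpb (-0.57 ± 0.19, adjusted p = 0.12), Pck2 (-0.42 ± 0.12, adjusted p = 0.0696), Slc1a4 (-0.41 ± 0.14, adjusted p = 0.139) and Ddit3 (-0.40 ± 0.11, adjusted p = 0.064). With any 1 array left out, 11 to 20 members passed in controls, the most without CD8 control replicate C (15 higher and 5 lower) and the fewest without CD8 control replicate A or B or CD4 control replicate C. Of all genes 16.2% to 20.6% passed in these fits. The calls of Slc1a4, Slc38a2 and Atf5 were each lost in part of the alternatives, Slc1a4 without CD8 control replicate A, without CD4 control replicate B or C, or with the groups compared fitted alone (adjusted p between 0.063 and 0.0789) with a difference of 0.32 at the lowest, Slc38a2 without CD8 control replicate A or B, without CD4 control replicate A or B, or with the groups compared fitted alone (adjusted p between 0.0519 and 0.0809) and Atf5 without CD8 control replicate B, without CD4 control replicate C, or with the groups compared fitted alone (adjusted p between 0.0665 and 0.0757).

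**Figure D3:**
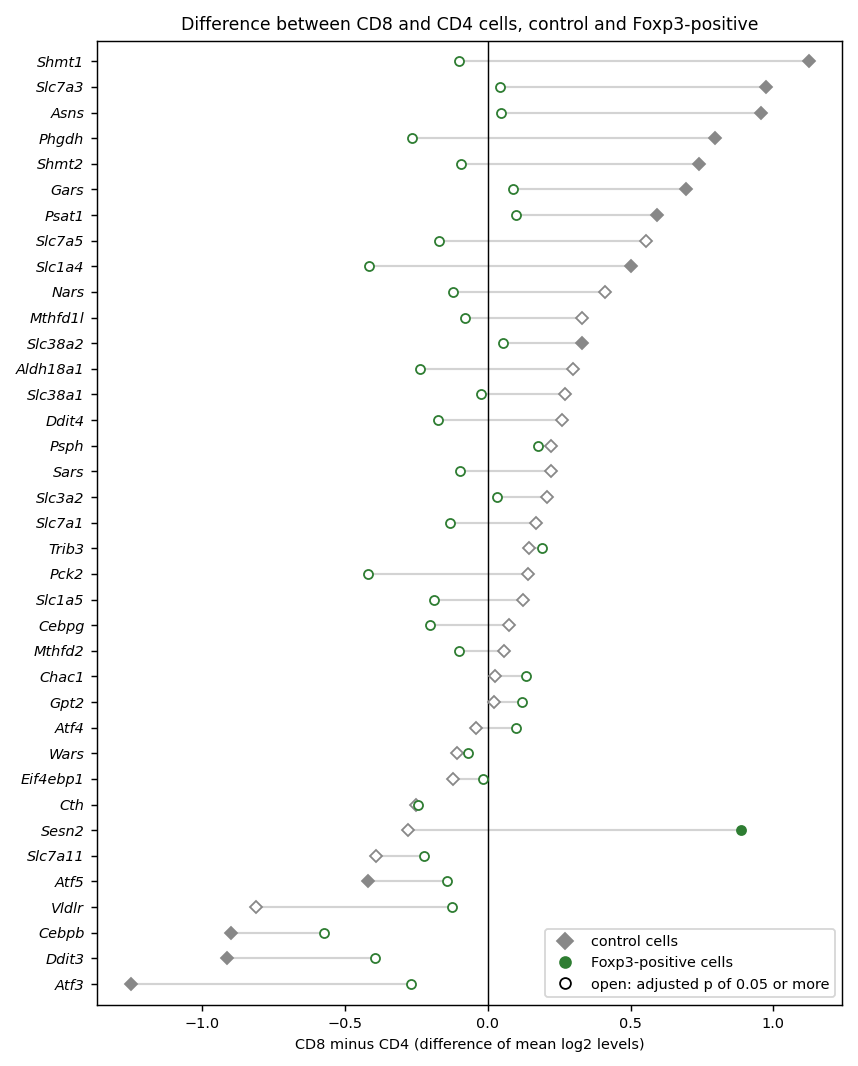
CD8 minus CD4 difference of mean log2 levels for each of the 37 genes, in control cells (grey diamonds) and Foxp3-positive cells (green circles), joined by a line and ordered by the difference in controls; filled symbols have an adjusted p under 0.05. The green circles run from -0.57 for Cebpb to 0.89 for Sesn2, the one filled, while the diamonds run from -1.25 for Atf3 to 1.12 for Shmt1.

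Other genes of the pathway, from lists written down with the members, were counted in the same way, and each share is read against that of all genes, of which 10.6% fell and 9.39% rose in CD8 cells, and 10.4% fell and 12.1% rose in CD4 cells. Of 13 measured genes that control the stress response upstream of ATF4, 5 (38.5%) fell and 0 rose in CD8 cells (median change -0.23), and 4 (30.8%) fell and 1 (7.69%) rose in CD4 cells (median change 0.04). The rise in CD4 cells is a share below that of all genes. Among them Eif2ak3 encodes PERK, the eIF2 kinase of the endoplasmic reticulum. The Eif2ak3 level was 9.38, 9.44 and 9.41 on CD8 control arrays, 8.06, 8.05 and 7.88 on CD8 Foxp3-positive arrays, 8.86, 9.09 and 8.79 on CD4 control arrays and 7.86, 7.75 and 7.76 on CD4 Foxp3-positive arrays. It fell without overlap in both, with -1.41 ± 0.10 in CD8 cells (adjusted p = 3.49e-07) and -1.12 ± 0.10 in CD4 cells (adjusted p = 2e-06). Eif2ak2, the kinase PKR that senses viral RNA, fell in CD4 cells (-0.96 ± 0.10, adjusted p = 7.88e-06) and was at 0.19 ± 0.10 in CD8 cells (adjusted p = 0.202). Impact, an inhibitor of GCN2, fell, with -0.39 ± 0.10 in CD8 cells (adjusted p = 0.0174) and -0.78 ± 0.10 in CD4 cells (adjusted p = 0.000116), and the phosphatase subunit Ppp1r15b passed in neither (-0.23 and -0.11). The other falls in CD8 cells were the eIF2B subunits Eif2b3, Eif2b1 and Eif2b5 (-0.52, -0.39 and -0.35). In CD4 cells the eIF2 phosphatase subunit Ppp1r15a fell (-0.64) and the kinase Eif2ak1 rose (0.30). The names given here and below to complete counts of 5 or fewer were picked once their values had been seen.

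Of 17 other genes reported as ATF4 targets, 6 (35.3%) fell and 1 (5.88%) rose in CD8 cells (median change -0.39), and 5 (29.4%) fell and 1 (5.88%) rose in CD4 cells (median change -0.21). Jdp2, an AP-1 family factor, fell, with -1.26 ± 0.13 in CD8 cells (adjusted p = 1.26e-05) and -1.95 ± 0.13 in CD4 cells (adjusted p = 1.65e-07), and the mitochondrial protease Lonp1 fell, with -0.82 ± 0.13 in CD8 cells (adjusted p = 0.000623) and -0.65 ± 0.13 in CD4 cells (adjusted p = 0.00305). Nfil3, a basic leucine zipper factor, fell in CD4 cells (-2.05 ± 0.18, adjusted p = 2.4e-06) and was at -0.48 ± 0.18 in CD8 cells (adjusted p = 0.0824). Stc2, a secreted glycoprotein, and the autophagy adaptor Sqstm1 completed the falls in CD4 cells (-0.78 and -0.26). The autophagy gene Map1lc3b rose in both (0.71 and 0.76), and Herpud1, of the endoplasmic reticulum, passed in neither (-0.25 and -0.27). Lars and Eprs of this list are also counted among the cytosolic synthetases below, and Aldh1l2 among the one-carbon genes.

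Of 13 cytosolic synthetases outside the list, 9 (69.2%) fell and 0 rose in CD8 cells (median change -0.50), and 3 (23.1%) fell and 0 rose in CD4 cells (median change -0.13). Cars, Iars and Yars, for cysteine, isoleucine and tyrosine, were the 3 that fell in CD4 cells, with Cars at -1.27 ± 0.10 in CD8 cells (adjusted p = 1.54e-06) and -0.78 ± 0.10 in CD4 cells (adjusted p = 8.31e-05), Iars at -0.88 ± 0.10 in CD8 cells (adjusted p = 3.74e-05) and -0.38 ± 0.10 in CD4 cells (adjusted p = 0.0155) and Yars at -0.87 ± 0.12 in CD8 cells (adjusted p = 0.000142) and -0.49 ± 0.12 in CD4 cells (adjusted p = 0.00824). Qars, for glutamine, passed in neither (0.07 and 0.19). Of 16 mitochondrial synthetases, 4 (25.0%) fell and 1 (6.25%) rose in CD8 cells (median change -0.18), and 0 fell and 4 (25.0%) rose in CD4 cells (median change 0.20). The rise in CD8 cells is a share below the 9.39% of all genes. In CD8 cells Mars2, Yars2, Nars2 and Sars2 fell (-0.54, -0.53, -0.35 and -0.32) and Fars2 rose (0.59), and in CD4 cells Vars2, Lars2, Iars2 and Hars2 rose (0.42, 0.36, 0.33 and 0.31), while Tars2 passed in neither. Of 17 other one-carbon, folate and glycine genes, 6 (35.3%) fell and 1 (5.88%) rose in CD8 cells (median change -0.35), and 2 (11.8%) fell and 1 (5.88%) rose in CD4 cells (median change 0.17). Mthfd1, the cytosolic folate enzyme, and Gart, of purine synthesis, fell in CD8 cells (-0.85 ± 0.14, adjusted p = 0.000772, and -0.78 ± 0.15, adjusted p = 0.00244) and were at 0.25 and 0.22 in CD4 cells (adjusted p = 0.261 and 0.354). Ggh, which trims folates, fell in both (-0.47 and -0.72), Gcsh, of the glycine cleavage system, rose in CD8 cells (0.52), and in CD4 cells Aldh1l1 fell (-0.35) and the methionine synthase Mtr rose (0.48). Tyms passed in neither (-0.31 and -0.15).

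Of 26 amino acid transporters outside the list, 1 (3.85%) fell and 5 (19.2%) rose in CD8 cells (median change 0.02), and 4 (15.4%) fell and 6 (23.1%) rose in CD4 cells (median change -0.01). Of all genes 10.6% fell and 9.39% rose in CD8 cells, and 10.4% fell and 12.1% rose in CD4 cells, so the falls of these transporters were below that share in CD8 cells and near it in CD4 cells. Slc43a1, a facilitative transporter of large neutral amino acids (LAT3), had the largest rise of these. The Slc43a1 level was 7.92, 7.60 and 8.0 on CD8 control arrays, 10.37, 10.11 and 10.60 on CD8 Foxp3-positive arrays, 6.32, 6.30 and 6.35 on CD4 control arrays and 9.83, 9.56 and 10.07 on CD4 Foxp3-positive arrays. Slc43a1 rose 5.74-fold in CD8 cells (2.52 ± 0.15 in log2, adjusted p = 1.25e-07) and 11.3-fold in CD4 cells (3.50 ± 0.15 in log2, adjusted p = 5.01e-09), where Slc7a5, which carries like substrates, fell. The taurine carrier Slc6a6 rose by 0.73 ± 0.10 in CD8 cells (adjusted p = 0.000143) and 0.98 ± 0.10 in CD4 cells (adjusted p = 8.89e-06). In CD8 cells Slc43a2, Slc38a9 and Slc38a6 also rose (0.87, 0.50 and 0.32) and Slc36a4 fell (-0.59). In CD4 cells Slc7a8, the neutral amino acid transporter LAT2, fell (-2.06 ± 0.24, adjusted p = 3.55e-05) and was at -0.06 ± 0.24 in CD8 cells (adjusted p = 0.914), with Slc36a1, Slc36a4 and Slc38a10 the other falls (-0.58, -0.43 and -0.34). Slc25a22 passed in neither.

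Of 19 other amino acid and glutathione enzymes, 7 (36.8%) fell and 0 rose in CD8 cells (median change -0.22), and 2 (10.5%) fell and 3 (15.8%) rose in CD4 cells (median change 0.04). Bcat1, which transaminates branched-chain amino acids in the cytosol, fell in CD8 cells (-1.25 ± 0.19, adjusted p = 0.000394) and was at -0.09 ± 0.19 in CD4 cells (adjusted p = 0.795). Its mitochondrial relative Bcat2 fell, with -0.43 ± 0.08 in CD8 cells (adjusted p = 0.00229) and -0.61 ± 0.08 in CD4 cells (adjusted p = 0.000142), and the aspartate aminotransferase Got1 fell, with -0.46 ± 0.09 in CD8 cells (adjusted p = 0.00258) and -0.34 ± 0.09 in CD4 cells (adjusted p = 0.0158). In CD4 cells the rises were Gclm, Glud1 and Glul (0.45, 0.44 and 0.40), and Odc1, of polyamine synthesis, passed in neither. Of 26 genes of mTORC1 and amino acid sensing, 2 (7.69%) fell and 4 (15.4%) rose in CD8 cells (median change -0.0029), and 0 fell and 7 (26.9%) rose in CD4 cells (median change 0.07). In CD8 cells these shares lay near those of all genes, 10.6% and 9.39%, and in CD4 cells 12.1% of all genes rose. Rragd, a GTPase that recruits mTORC1 to lysosomes, rose by 1.19 ± 0.23 in CD8 cells (adjusted p = 0.00252) and 1.97 ± 0.23 in CD4 cells (adjusted p = 3.88e-05). Sesn1, a relative of Sesn2 that restrains mTORC1, rose by 0.95 ± 0.11 in CD8 cells (adjusted p = 3.72e-05) and 1.05 ± 0.11 in CD4 cells (adjusted p = 1.1e-05). Sesn3 and Nprl3 were the other rises in CD8 cells (0.99 and 0.42), and Nprl2 and Rragb the falls, Rragb at -1.59 ± 0.25 (adjusted p = 0.000426) against -0.20 ± 0.25 in CD4 cells (adjusted p = 0.633). Lamtor3 passed in neither. Of the pathway genes named by their size of change, part lost their call in some alternatives. In CD8 cells Impact no longer passed without CD8 control replicate B, or without CD8 Foxp3-positive replicate B or C (adjusted p between 0.0505 and 0.0648). In CD8 cells Mars2 no longer passed without CD8 control replicate A (adjusted p = 0.0568). In CD8 cells Yars2 no longer passed without CD8 control replicate B (adjusted p = 0.0507). In CD8 cells Ggh no longer passed without CD8 control replicate A or C, or without CD8 Foxp3-positive replicate A or B (adjusted p between 0.0502 and 0.086). In CD4 cells Iars no longer passed without CD4 control replicate C, or without CD4 Foxp3-positive replicate B (adjusted p between 0.0623 and 0.0652). In CD4 cells Got1 no longer passed without CD4 control replicate C, without CD4 Foxp3-positive replicate B, or with the groups compared fitted alone (adjusted p between 0.0577 and 0.075).

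**Figure D4:**
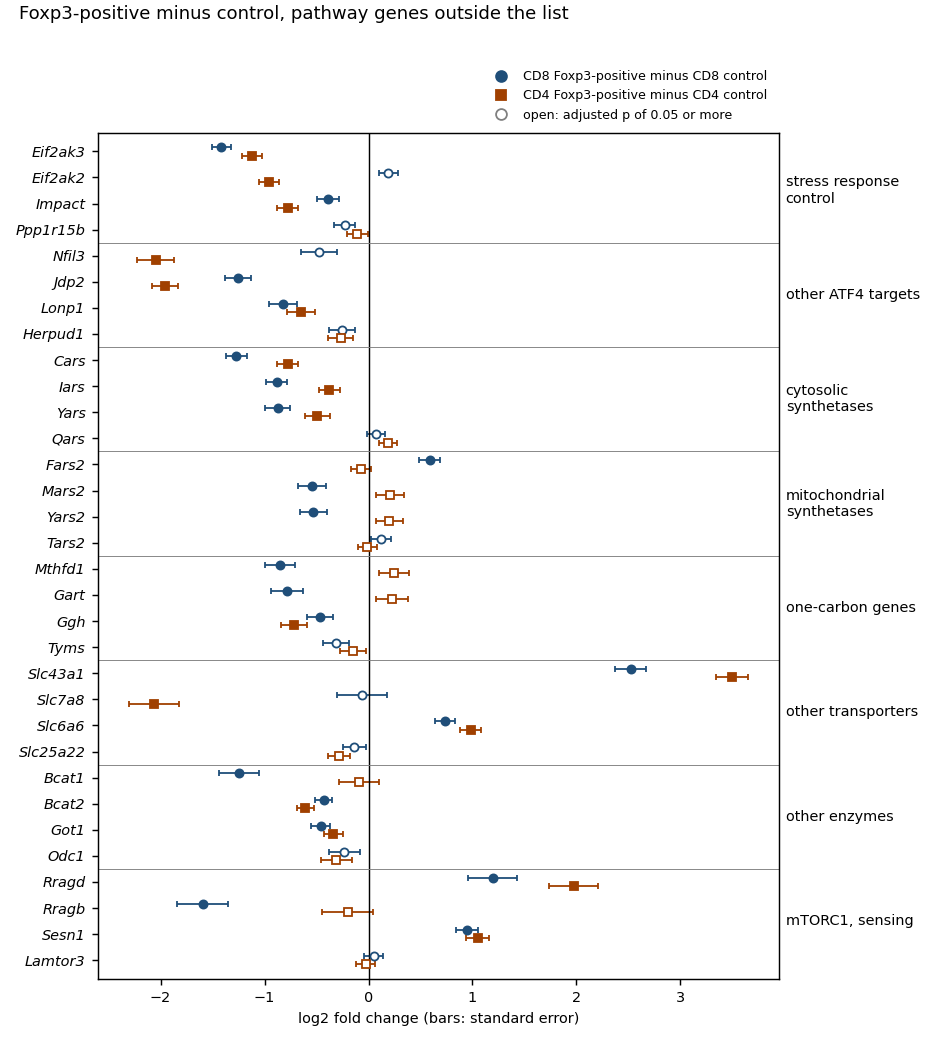
Log2 fold changes, Foxp3-positive minus control, of pathway genes outside the list in CD8 (blue circles) and CD4 cells (brown squares), with standard errors; from each of 8 lists the 3 largest changes past the threshold and the brightest gene that passed in neither are drawn, and filled symbols have an adjusted p under 0.05. Slc43a1 lies furthest right, at 2.52 and 3.50, and Eif2ak3, Jdp2 and Cars lie left of 0 in both.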

How the data were processed

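The deposited values are log2 expression per transcript cluster, for which the submitters' processing notes name RMA and Affymetrix Expression Console; their versions and the genome build were not given in the sources used here. Per the labels' protocols, 250 ng of total RNA per sample was labelled with a GeneChip WT Plus kit. RMA gives all arrays one distribution, so a change in total RNA per cell would not show. The table holds 34365 clusters, of which 23521 have 1 symbol, 1814 several and 9030 none listed; the brightest cluster stood for each of 22180 genes. Array medians lay between 5.23 and 5.33. Array number, 3 per group, limits the precision, and no batch is given.

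All 12 arrays entered one model of 4 group means (limma 3.58.1, lmFit and eBayes, R 4.3.3; 8 residual degrees of freedom), tested on simulated data. Tests were two-sided, adjusted by Benjamini-Hochberg over all genes, threshold 0.05. Folds and standard errors come from the model. All 40 members are named; per-array values are given for those changed at least 2-fold or past the interaction, and Atf4, with Wars added. From each pathway list the 3 largest changes past the threshold and the brightest gene that passed in neither are named. The members and lists were chosen with earlier results of these data known. Alternatives changed the block, the arrays and groups fitted, the prior, the scaling, a filter on dim genes and the cluster rule.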

Additional observations from a re-analysis of the deposited data

Results flagged for a closer look

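The change from control to Foxp3-positive cells differed between CD8 and CD4 cells, by limma's interaction test, for 12 of the 37 members, against 13.5% of all genes. With dim genes left out 14 of 36 members passed, against 32.1% of the genes kept. The interaction (CD8 change minus CD4 change, log2) was below 0 for Asns (-0.91, adjusted p = 0.00219), Phgdh (-1.06, adjusted p = 0.00863), Shmt1 (-1.22, adjusted p = 0.0072), Shmt2 (-0.83, adjusted p = 0.0123), Aldh18a1 (-0.53, adjusted p = 0.0423), Pck2 (-0.56, adjusted p = 0.0439), Slc7a3 (-0.93, adjusted p = 0.0355), Slc1a4 (-0.92, adjusted p = 0.00865) and Gars (-0.61, adjusted p = 0.0124). It was above 0 for Atf3 (0.98, adjusted p = 0.00244), Ddit3 (0.52, adjusted p = 0.0449) and Sesn2 (1.17, adjusted p = 0.00324). Sesn2 was the member that passed in opposite directions in the 2 lineages. Its rise in CD8 cells lost its limma call in part of the alternatives (adjusted p between 0.0518 and 0.11). The interaction calls of Aldh18a1, Pck2, Slc7a3 and Ddit3 were also lost in part of the alternatives, as listed above.

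Among the other named genes it was below 0 for Cars (-0.49, adjusted p = 0.0384), Iars (-0.50, adjusted p = 0.0346), Mars2 (-0.75, adjusted p = 0.0207), Yars2 (-0.73, adjusted p = 0.0202), Mthfd1 (-1.10, adjusted p = 0.00301), Gart (-1.01, adjusted p = 0.00815), Slc43a1 (-0.98, adjusted p = 0.00922), Bcat1 (-1.15, adjusted p = 0.013), Rragb (-1.39, adjusted p = 0.0186) and Mars1 (-0.62, adjusted p = 0.0264). It was above 0 for Eif2ak2 (1.15, adjusted p = 0.000132), Nfil3 (1.57, adjusted p = 0.00126), Jdp2 (0.70, adjusted p = 0.021), Fars2 (0.66, adjusted p = 0.00724) and Slc7a8 (2.00, adjusted p = 0.00207). Slc43a1 rose in both lineages, and its lower value marks a smaller rise in CD8 cells. Jdp2 no longer passed without CD8 Foxp3-positive replicate A, or without CD4 control replicate B or C (adjusted p between 0.0534 and 0.0559). Cars missed the threshold without CD8 control replicate A or B, without CD8 Foxp3-positive replicate A, B or C, without CD4 control replicate A or B, without CD4 Foxp3-positive replicate A or B, or with the replicate block (adjusted p between 0.0529 and 0.0941). Iars no longer passed without CD8 control replicate A or B, without CD8 Foxp3-positive replicate A, B or C, without CD4 control replicate A or B, without CD4 Foxp3-positive replicate A or C, or with the replicate block (adjusted p between 0.0514 and 0.0854). Mars2 missed the threshold without CD8 control replicate A, without CD8 Foxp3-positive replicate C, or without CD4 Foxp3-positive replicate A or B (adjusted p between 0.0516 and 0.055). Yars2 no longer passed without CD8 Foxp3-positive replicate A, or without CD4 control replicate B (adjusted p between 0.0532 and 0.0544). Gart missed the threshold with the mean of all clusters (adjusted p = 0.221). Mars1 no longer passed without CD8 control replicate A or B, without CD8 Foxp3-positive replicate A or C, without CD4 control replicate B, or without CD4 Foxp3-positive replicate A or B (adjusted p between 0.0592 and 0.0686).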

How the results depend on the processing

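With 1 array left out in turn, the number of the 37 members that passed ran from 26 to 31 in CD8 cells (29 with all arrays), 17 to 26 in CD4 cells (25), 8 to 16 for the interaction (12), 11 to 20 between the control lineages (13) and 1 to 2 between the Foxp3-positive lineages (1). Of all genes 15.7% to 20.5%, 17.3% to 23.7%, 10.2% to 14.2%, 16.2% to 20.6% and 3.04% to 5.16% passed in these fits. The replicate block gave 28, 25, 11, 14 and 2 in that order, against 19.7%, 22%, 13.2%, 20.7% and 4.46% of all genes. It ended the calls of Sesn2 in CD8 cells and Ddit3 in the interaction. It added a limma call for Slc7a5 between the control lineages (adjusted p = 0.0495). Between the Foxp3-positive lineages it added Pck2 (adjusted p = 0.047). Deviations of same-letter arrays correlated between -0.102 and 0.137, 2 of 18 pairs above 0.1, and those of other arrays between -0.14 and 0.088. Same-letter values were 0.0538, 0.135 and 0.137 between the CD8 groups, where other letters gave -0.136 to 0.0161. Between the CD4 groups they were 0.0121, -0.102 and -0.0391. With 3 arrays per group these values do not settle whether the letters pair the arrays. Between the Foxp3-positive lineages 3 members passed with the trended robust prior and 3 with dim genes left out, where Pck2 and Ddit3 joined Sesn2; the share of all genes that passed was 5.91% and 12.0% there, against 4.71%, and with dim genes left out 36 members were tested. Over these alternatives no member's call changed its direction. Calls held throughout for 25 of 29, 16 of 25, 8 of 12, 10 of 13 and 1 of 1. In the same order, 3, 2, 6, 10 and 3 members not called in the main model passed in some alternative. The narrower motif was in 5 promoters in place of 9. Genes near the median level of 5.60 or below it, such as Cth, Slc7a3 and Slc7a11, have no background level to set a limit of detection.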
